A study of Mus musculus with 16 samples.

Results

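Interferon-stimulated genes encode the proteins with which a cell answers a viral infection. The 39 genes described here were chosen by symbol as classical members of this programme, with the transcription factors that switch it on and without the interferon-inducible GTPases and MHC genes, and they are 39 of the 52636 genes counted. All 39 symbols were matched to an identifier in the count table, and 37 had enough counts to be tested. Ifit3b and Ifitm3 did not. The genes were measured by RNA sequencing of mouse pancreatic islets, the clusters of endocrine cells that hold the insulin-secreting beta cells. Islets from male mice of 12 weeks, of the strain C57BL/6JRj by the sample labels and C57BL/6NRj by the study's methods, were cultured for 10 days in medium with human serum. The 4 conditions, with 4 libraries each, were no addition (control), 50 pg/mL of recombinant mouse IL-1β, 0.2 mM of sodium butyrate, and both together. IL-1β is a cytokine of inflammation. Butyrate, a fatty acid that bacteria of the gut release, is known as an inhibitor of histone deacetylases. For each condition 500 islets were used, pooled over several mice, and replicates are therefore experiments rather than animals.

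Type I interferons bind a receptor made of IFNAR1 and IFNAR2, and interferon gamma binds one made of IFNGR1 and IFNGR2. The kinases bound to these receptors phosphorylate transcription factors of the STAT family. STAT2 and IRF9 are subunits of the complex ISGF3, which binds an element called ISRE, whereas other STAT complexes bind an element called GAS. IL-1β signals through another receptor, which leads to NF-κB, and it is not itself an interferon. In islets, interferons and the genes they induce are known from the early stages of type 1 diabetes and from enterovirus infection of beta cells.

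The libraries held between 18635943 and 25955943 counts. Values are given as CPM, the share of a library's counts in parts of 1e6 after TMM scaling, so that 1 CPM was 19.2 to 27.7 reads. The libraries carried no molecular identifiers, so reads are not separate molecules. Differences are log2 fold changes from 1 edgeR quasi-likelihood fit to all 16 libraries, given with their standard error, and calls were made at an adjusted p (Benjamini-Hochberg, over the 18587 genes tested) under 0.01. Where the libraries of 2 conditions are said not to overlap, this describes genes mostly named for a called change. It adds no support to the call, and how often it held over all genes was not counted. The libraries were those of islets, with 9 beta cell markers summing to between 215000 and 237000 CPM in control and between 138000 and 180000 CPM with IL-1β. Markers of T and NK cells, which are sources of interferon gamma, summed to at most 3.84 CPM, and those of B cells to at most 2.19 CPM. Macrophage markers moved with the conditions. Of the 11 listed, IL-1β raised 10 and lowered C1qa, beside 11.2% of all genes tested called higher and 6.59% lower. C1qa was the most abundant of them, with 111 ± 11 CPM in control. All 11 summed to 131 to 143 CPM in control, 188 to 237 CPM with IL-1β, 102 to 142 CPM with IL-1β plus butyrate, and 86.7 to 107 CPM with butyrate. Without C1qa they summed to 18.9 to 31 CPM in control, 96.8 to 169 CPM with IL-1β, 43.7 to 96.7 CPM with IL-1β plus butyrate, and 15.1 to 25 CPM with butyrate. In RNA from whole islets, more cells of a type and more RNA per cell cannot be told apart, and the part of macrophages in the results that follow was not tested.

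The DNA in front of some of the genes is shown first, since elements in it are what interferon signalling is known to act through. RefSeq promoters (GRCm38.p6, 250 bases before to 50 bases after the start) were at hand for 30 of the 39 genes. The ISRE core was searched on both strands as 2 copies of GAAA with 2 bases between them, and it was found in the promoters of 14 of these 30 genes (46.7%), as against 3.99% of all genes in the table. A GAS element, TTCNNNGAA, was found in 8 of the 30 (26.7%) as against 9.55% of all genes. The NF-κB consensus was found in 2 of them, Bst2 and Irf1 (6.67%), and in 5.14% of all genes. These are matches of letters, and binding of a factor was not measured. The stretches that follow are written along the gene's strand, with the ISRE core or overlapping copies of it in capitals, for genes whose expression rose with IL-1β (Bst2, Oas1a, Ifit1, Ifit3), did not pass the test (Stat2, Oas3, Isg15) or fell (Rsad2). Ifit3b is printed beside Ifit3, since both stretches are identical.
Bst2, chr8:71537572-71537617, minus strand: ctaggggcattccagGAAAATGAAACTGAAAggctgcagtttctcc
Oas1a, chr5:120907526-120907560, minus strand: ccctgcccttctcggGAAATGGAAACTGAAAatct
Ifit1, chr19:34640770-34640828, plus strand: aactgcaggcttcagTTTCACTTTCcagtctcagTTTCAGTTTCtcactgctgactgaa
Ifit3, chr19:34583358-34583431, plus strand: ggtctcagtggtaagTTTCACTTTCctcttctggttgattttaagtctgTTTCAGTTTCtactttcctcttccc
Ifit3b, chr19:34607754-34607827, plus strand: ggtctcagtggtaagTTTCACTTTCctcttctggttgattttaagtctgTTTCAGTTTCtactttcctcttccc
Stat2, chr10:128270261-128270300, plus strand: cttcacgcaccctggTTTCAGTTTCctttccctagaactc
Oas3, chr5:120777710-120777749, minus strand: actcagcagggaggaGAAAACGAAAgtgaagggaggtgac
Isg15, chr4:156200860-156200911, minus strand: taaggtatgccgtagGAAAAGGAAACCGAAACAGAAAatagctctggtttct
Rsad2, chr12:26456548-26456587, minus strand: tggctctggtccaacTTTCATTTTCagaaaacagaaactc
The promoter of Irf1 held no ISRE core, but a GAS element and the NF-κB consensus, which are in capitals in this order in the last 105 bases before its start.
Irf1, chr11:53769909-53770013, plus strand: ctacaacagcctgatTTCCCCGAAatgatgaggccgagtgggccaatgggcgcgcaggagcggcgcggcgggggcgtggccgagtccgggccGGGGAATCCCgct

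Over all genes tested, IL-1β raised 11.2% and lowered 6.59%. Of the 12 tested genes with an ISRE core in this window, IL-1β raised 7 and lowered 1, and 4 did not pass the test. Of the 16 tested genes with a promoter but without the core, IL-1β raised 9, lowered 0 and 7 did not pass. Isg15, with the longest run of cores among the stretches printed, was among those that did not pass.

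The first comparison asked what IL-1β did to the programme in islets that had no butyrate. IL-1β raised 22 of the 37 tested genes and lowered 1, Rsad2, whereas 11.2% of all genes tested were called higher and 6.59% lower. These shares are also the background for the counts in smaller groups of genes below. The median log2 fold change was 0.57 over these genes and -0.0252 over all genes tested. Relative to the mean of the controls, the median of the genes in a single library lay between 0.38 and 0.61 (log2) in the 4 libraries with IL-1β and between -0.06 and 0.12 in the controls. The rises were modest in size, with the largest at 1.37 (Ifit3).

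**Figure D1:**
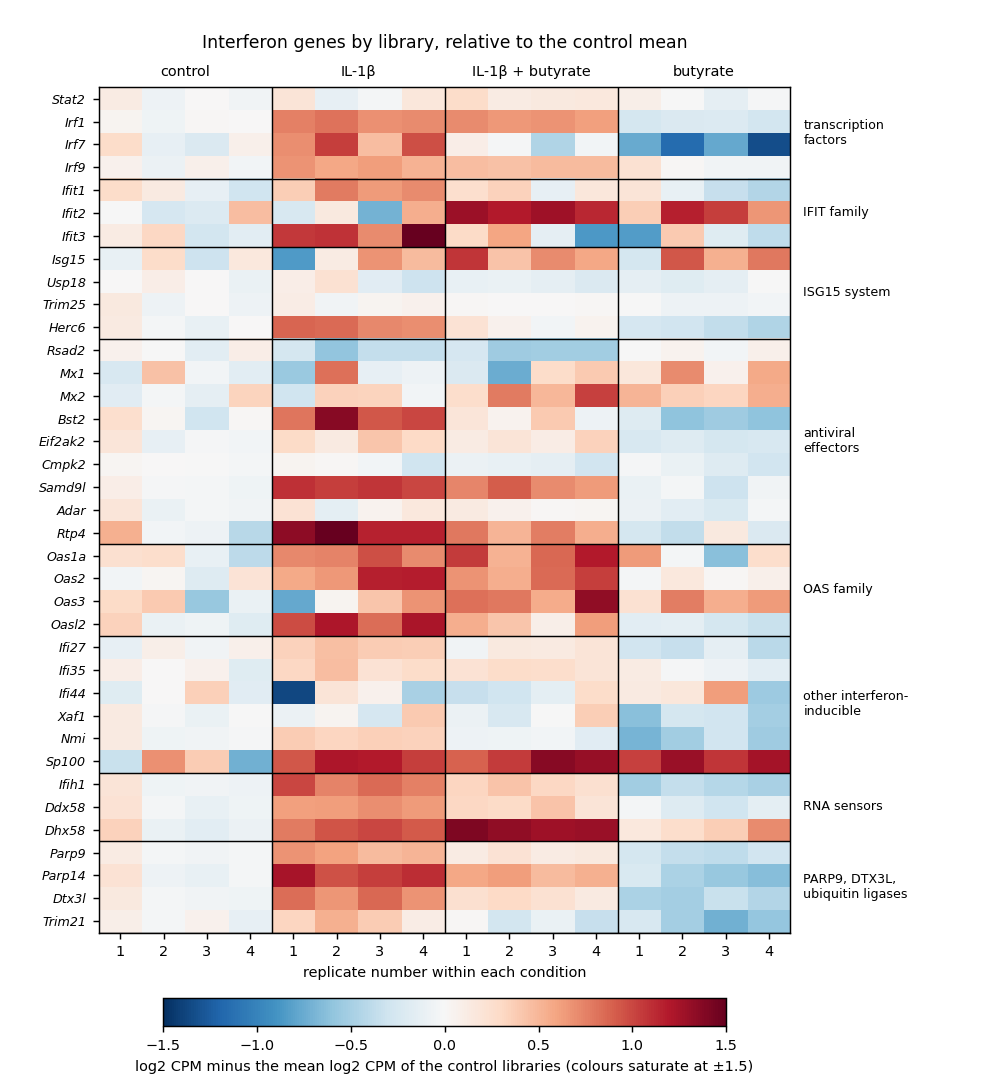
Heat map of the 37 tested interferon genes (rows, grouped by role) in the 16 libraries (columns, grouped by condition and numbered by replicate); colour is log2 CPM minus the mean log2 CPM of the 4 controls, red above and blue below. Most rows are red in the 4 columns of IL-1β, paler with IL-1β plus butyrate and pale or blue with butyrate, while Ifit2, Dhx58 and Sp100 are red with both.

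Among the transcription factors, IL-1β raised Irf1, Irf7 and Irf9, and Stat2 did not pass the test. Irf1, which is induced by both interferon gamma and NF-κB, had 39.0, 36.1, 38.3 and 37.8 CPM in control and 63.7, 66.7, 60.9 and 61.9 CPM with IL-1β. The ranges were far apart, and the log2 fold change was 0.74 ± 0.05 (SE, n = 4 against 4, adjusted p = 4.9e-13). Irf9, the DNA-binding subunit of ISGF3, had 17.3, 15.6, 17.4 and 16.1 CPM in control and 26.5, 24.7, 25.7 and 23.9 CPM with IL-1β. This too was a rise without overlap between the libraries, of 0.60 ± 0.06 (adjusted p = 2.3e-08). Irf7, the factor that amplifies the production of type I interferons, was much lower, with 2.66, 2.0, 1.86 and 2.31 CPM in control and 3.62, 4.58, 3.06 and 4.37 CPM with IL-1β, a rise of 0.83 ± 0.17 (adjusted p = 0.00039). Stat2, which lends ISGF3 its activation domain, had 35.9, 31.2, 32.9 and 31.8 CPM in control and 37.7, 30.3, 32.3 and 37.1 CPM with IL-1β. Here the ranges overlapped, and the log2 fold change was 0.06 ± 0.07 (adjusted p = 0.54).

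Of the 9 antiviral effectors tested, IL-1β raised 4 and lowered 1, with a median of 0.09. Rtp4, a chaperone of receptors that interferon induces, had 2.15, 1.42, 1.39 and 1.07 CPM in control and 3.83, 4.53, 3.37 and 3.36 CPM with IL-1β (log2 fold change 1.32 ± 0.18, adjusted p = 2e-06). Every library with IL-1β lay above every control. Of the exonic bases of Rtp4, 296 (13.9%) overlap the gene Gm45338 on the same strand. Bst2 (tetherin), which holds budding virus at the cell surface, had 3.03, 2.59, 2.05 and 2.57 CPM in control and 4.5, 6.67, 4.92 and 5.16 CPM with IL-1β (1.05 ± 0.15, adjusted p = 4.1e-06). Samd9l, a restriction factor of poxviruses, had 21.3, 19.7, 19.4 and 19 CPM in control and 42.4, 40.7, 41.9 and 39.8 CPM with IL-1β, with little spread in either condition (1.05 ± 0.06, adjusted p = 3.9e-13). Both genes reached 2.07 times the control. Eif2ak2 (PKR), the kinase that stops translation on double-stranded RNA, rose less, from 27.1 ± 2.5 to 33.0 ± 2.6 CPM (SD, n = 4), or by 0.29 ± 0.07 (adjusted p = 0.0014).

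In the family of oligoadenylate synthetases, which on sensing double-stranded RNA make the messenger that activates RNase L, IL-1β raised 3 of 4 genes. Oasl2 had 6.44, 4.71, 4.83 and 4.45 CPM in control and 10.1, 11.8, 9.12 and 11.9 CPM with IL-1β (1.08 ± 0.12, adjusted p = 6.7e-08). Oas2 had 1.49, 1.58, 1.34 and 1.8 CPM in control and 2.33, 2.48, 3.58 and 3.61 CPM with IL-1β (0.95 ± 0.18, adjusted p = 0.00014). Oas1a rose by 0.80 ± 0.23 (adjusted p = 0.0094), but 57.6% of the 50-base windows of its transcripts also occur in Oas1g, so its counts are uncertain, and its call was lost in 7 of 15 alternatives (adjusted p = 0.045 without control replicate 4). Oas3 was near the limit of detection, at 0.342 ± 0.12 CPM in control and 0.385 ± 0.18 CPM with IL-1β, and did not pass the test.

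All 3 cytosolic RNA sensors rose. Ifih1 (MDA5), which binds long double-stranded RNA and whose variants are linked to type 1 diabetes, had 24.7, 20.7, 20.8 and 20.5 CPM in control and 43.4, 36.3, 39.0 and 36.6 CPM with IL-1β (0.84 ± 0.07, adjusted p = 1e-10). Ddx58 (RIG-I), which binds the ends of viral RNA, went from 24.4 ± 2.6 to 38.1 ± 1.0 CPM (0.64 ± 0.07, adjusted p = 1.5e-08). Dhx58 (LGP2), which modulates the other two, had 3.5, 2.54, 2.44 and 2.57 CPM in control and 4.76, 5.36, 5.55 and 5.27 CPM with IL-1β (0.92 ± 0.13, adjusted p = 3.2e-06).

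PARP9 and DTX3L form a complex that adds ubiquitin to histones and viral proteins, and PARP14 is an ADP-ribosyltransferase of the same family. Parp14 had 28.7, 23.3, 22.8 and 24.1 CPM in control and 58.2, 47.9, 50.8 and 53.3 CPM with IL-1β (1.09 ± 0.08, adjusted p = 9e-11). Dtx3l had 20, 17.7, 17.4 and 17.4 CPM in control and 32.5, 28.8, 32.9 and 29.1 CPM with IL-1β (0.76 ± 0.06, adjusted p = 2.7e-10), and Parp9 rose by 0.57 ± 0.06 (adjusted p = 5.9e-08). All 3 separated the conditions completely. Parp9 and Dtx3l lie head to head on opposite strands and share 458 exonic bases, and the strand setting of the counting is not given in the sources used here. Trim21, the antibody receptor of the cytosol and a ubiquitin ligase, had 9.57 ± 0.67 CPM in control and 12.2 ± 1.5 CPM with IL-1β, with an adjusted p of 0.012 that did not pass.

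Rsad2 (viperin) went against the rest. This enzyme, which makes a chain-terminating nucleotide, is one of the most inducible products of interferon. It had 11.4, 10.8, 9.75 and 11.6 CPM in control and 9.05, 7.21, 8.5 and 8.44 CPM with IL-1β, a fall to 0.76 times the control (-0.40 ± 0.09, adjusted p = 0.00092), with every library of IL-1β below every control. Its neighbour and functional partner Cmpk2, a kinase that supplies the nucleotide viperin uses, had 47.1 ± 0.72 CPM in control and 45.0 ± 4.6 CPM with IL-1β (-0.07 ± 0.06, adjusted p = 0.49).

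The genes that did not pass the test with IL-1β were of very different abundance. Isg15, the ubiquitin-like modifier after which the programme is often scored, had 0.233, 0.334, 0.191 and 0.3 CPM in control and 0.103, 0.292, 0.466 and 0.397 CPM with IL-1β, which is 2 to 11 reads per library, and its log2 fold change was 0.26 ± 0.43. Mx1 had 0.354 ± 0.1 CPM in control and 0.381 ± 0.21 CPM with IL-1β. Mx2, annotated as a polymorphic pseudogene, had 1.76 ± 0.32 and 1.89 ± 0.42 CPM, and Ifi44 had 0.549 ± 0.12 and 0.43 ± 0.22 CPM. Ifit2 (0.03 ± 0.31) and Sp100 (1.23 ± 0.37, adjusted p = 0.014) were as sparse. At this depth the standard errors of these genes ran from 0.20 to 0.43, and only large changes could have been detected. Xaf1, an antagonist of the apoptosis inhibitor XIAP, had 2.38 ± 0.17 and 2.44 ± 0.5 CPM (0.06 ± 0.17). By contrast, Usp18, the protease that removes ISG15 and restrains the receptor, had 21.4 ± 1.2 CPM in control and 21.1 ± 3.6 CPM with IL-1β (-0.03 ± 0.08, adjusted p = 0.84). Trim25, the ligase that activates RIG-I, had 91.2 ± 6.8 and 93.6 ± 4.3 CPM (0.04 ± 0.05, adjusted p = 0.61), and Adar, which edits double-stranded RNA, had 60.4 ± 5.6 and 63.6 ± 6.8 CPM (0.08 ± 0.07, adjusted p = 0.46). These abundant genes had small standard errors. Herc6, the mouse ligase that attaches ISG15, was the 1 gene of 4 in the ISG15 system that rose, from 6.44 ± 0.45 to 11.2 ± 0.67 CPM (0.79 ± 0.09, adjusted p = 4.3e-08). Of exonic bases, 1269 (13.7%) of Herc6 overlap Gm45193 on the same strand, and 1365 (16.8%) of Adar overlap Chrnb2 on the opposite strand.

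Levels between genes can be compared only per length. Per kilobase of exon, the highest control levels among the members were those of Trim25 (15.8 CPM per kb), Ifi27 (15.1), Cmpk2 (11.3), Irf1 (9.51) and Usp18 (7.68). The lowest were those of Sp100 (0.0294 CPM per kb) and Oas3 (0.0484 CPM per kb), while Isg15 was at 0.35 CPM per kb and Mx1 at 0.0934 CPM per kb in control. The most abundant members thus included 3 that IL-1β did not change detectably (Trim25, Cmpk2, Usp18) and 2 that it raised (Ifi27, Irf1).

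The remaining members with a rise were Ifit1, Ifit3, Ifi27, Ifi35 and Nmi. Ifit1, which binds viral RNA that lacks methylation of its cap, went from 3.1 ± 0.56 to 4.79 ± 0.57 CPM (0.63 ± 0.15, adjusted p = 0.0021). Ifit3 was sparse, at 0.255 ± 0.065 and 0.656 ± 0.18 CPM, and shares 51.2% of its 50-base windows with Ifit3b, which had 0.29 ± 0.1 CPM in control and 0.302 ± 0.078 CPM with IL-1β. In 8 of 15 alternatives Ifit3 no longer passed the test, and its adjusted p-values ranged from 0.0038 to 0.051 (without IL-1β replicate 4). Ifi27, a small membrane protein, rose by 0.39 ± 0.06, Nmi, which binds STAT proteins, by 0.35 ± 0.08, and its partner Ifi35 by 0.32 ± 0.08. The rise of Ifi35 had an adjusted p of 0.0021 and of 0.016 without control replicate 4, and 290 of its exonic bases overlap an antisense gene.

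**Figure D2:**
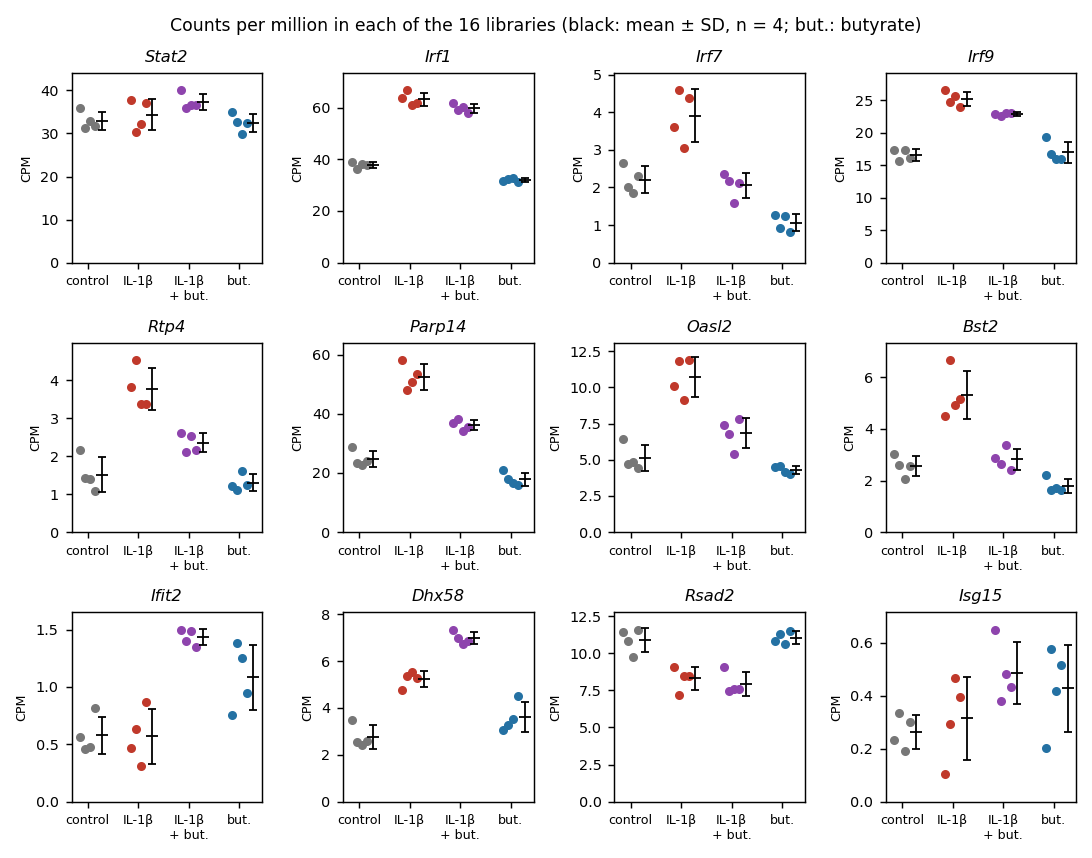
CPM (y axes, from 0) of 12 interferon genes in the 16 libraries by condition (x axes; but. is butyrate); coloured points are libraries, and black bars with ticks are the mean ± SD of the 4 libraries. Irf1, Irf9, Rtp4, Parp14, Oasl2, Bst2 and Dhx58 are higher with IL-1β in every library, Rsad2 is lower, Stat2 and Isg15 overlap, and the points of Irf7 and Bst2 with IL-1β plus butyrate are back among or near those of control.

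The second comparison asked how butyrate changed the programme in islets that also had IL-1β. Butyrate lowered 14 of the 37 genes and raised 2, Ifit2 and Dhx58, as against 11.1% of all genes called lower and 8.41% called higher. The median log2 fold change was -0.14 over these genes and 0.0121 over all genes tested. In single libraries with IL-1β plus butyrate, the median of the genes lay 0.23 to 0.28 above the control mean. This comparison has its IL-1β libraries in common with the first, so the values of both are given side by side and no agreement between them was scored.

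Irf7 fell by 0.93 ± 0.17 on the log2 scale (adjusted p = 0.00012), to 2.36, 2.16, 1.58 and 2.12 CPM with IL-1β plus butyrate, every library being below all 4 with IL-1β. The other 3 factors did not pass the test. Irf1 had 61.9, 59.2, 60.2 and 57.9 CPM (-0.08 ± 0.04, adjusted p = 0.16). Irf9 had 22.9, 22.5, 23.1 and 23.0 CPM (-0.14 ± 0.06, adjusted p = 0.091), which in every library was below the lowest with IL-1β. Stat2 had 40.0, 35.9, 36.6 and 36.7 CPM (0.12 ± 0.07, adjusted p = 0.19). Irf7 was thus the 1 factor of 4 called in this comparison.

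Of the effectors, Bst2 fell by 0.91 ± 0.15 (adjusted p = 3.1e-05) to 2.88, 2.63, 3.37 and 2.41 CPM, and its libraries lay below all those with IL-1β. Rtp4 fell by 0.67 ± 0.17 (adjusted p = 0.0033) to 2.6, 2.12, 2.54 and 2.17 CPM, and without IL-1β replicate 2 its adjusted p was 0.018. Oasl2 fell by 0.66 ± 0.12 (adjusted p = 8.3e-05) to 7.39, 6.79, 5.39 and 7.85 CPM, and Herc6 fell by 0.71 ± 0.09 (adjusted p = 3.7e-07) from 11.8, 11.6, 10.7 and 10.5 CPM to 7.51, 6.75, 6.26 and 6.69 CPM. In none of these 4 genes did the libraries of the conditions overlap. Parp14 fell by 0.54 ± 0.07 (adjusted p = 6.9e-06) to 37.0, 38.1, 34.2 and 35.7 CPM, and with it all 4 genes of its group, since Dtx3l fell by 0.53 ± 0.06, Trim21 by 0.51 ± 0.10 and Parp9 by 0.42 ± 0.06. Samd9l, which had risen as much as Bst2 with IL-1β, fell by 0.30 ± 0.06 to 33.1, 37.4, 32.5 and 30.9 CPM and remained above control in every library. The other members with a fall were Nmi (-0.44 ± 0.08) and Ifi27 (-0.28 ± 0.06).

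The RNA sensors parted in this comparison. Ifih1 fell by 0.51 ± 0.06 (adjusted p = 8.3e-07) to 27.0, 29.1, 26.8 and 25.6 CPM and Ddx58 by 0.34 ± 0.06 (adjusted p = 0.00019) to 30.1 ± 2.1 CPM. Dhx58 rose by 0.42 ± 0.11 (adjusted p = 0.0067), to 7.35, 7.0, 6.74 and 6.84 CPM, all above the highest library with IL-1β. The test of Dhx58 was close to the threshold, with adjusted p-values from 0.0019 to 0.029 over the alternatives, and the call was lost in 9 of 15. Dhx58 shares 141 exonic bases with an antisense gene. Ifit2, which binds viral RNA rich in adenine and uracil, rose by 1.28 ± 0.27 (adjusted p = 0.00067), from 0.465, 0.633, 0.311 and 0.866 CPM with IL-1β to 1.5, 1.4, 1.49 and 1.35 CPM. The conditions did not overlap, and the adjusted p was at most 0.0044 in the alternatives. The other tested genes of its family lie beside it on chromosome 19, and their changes did not pass the test, with Ifit1 at -0.47 ± 0.15 (adjusted p = 0.016) and Ifit3 at -1.29 ± 0.38 (adjusted p = 0.011). Rsad2, at 9.1, 7.47, 7.58 and 7.56 CPM, showed no detectable change (-0.06 ± 0.09, adjusted p = 0.64).

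The third comparison was of butyrate alone with control. Butyrate lowered 11 of the 37 genes and raised 1, Sp100, as against 11.4% of all genes called lower and 8.53% called higher, and the median was -0.14 as against 0.00654 over all genes. In single libraries the median of the genes lay between -0.21 and -0.1 relative to the control mean. Irf7 had the largest fall, to 1.26, 0.933, 1.25 and 0.817 CPM, or 0.478 times the control (-1.06 ± 0.20, adjusted p = 0.00021). Its highest library with butyrate was below its lowest control. Irf1 fell by 0.24 ± 0.05 (adjusted p = 3e-04) to 31.6, 32.5, 32.8 and 31.3 CPM, while Irf9, at 19.3, 16.7, 15.9 and 16 CPM, and Stat2, at 35.0, 32.7, 29.9 and 32.5 CPM, did not pass the test.

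The group around PARP9 fell as a whole with butyrate alone, as it did in the presence of IL-1β. Parp14 had 21, 17.8, 16.6 and 15.8 CPM with butyrate (-0.48 ± 0.08, adjusted p = 0.00012), Dtx3l had 13, 12.7, 14.4 and 13.3 CPM (-0.44 ± 0.07, adjusted p = 1.5e-05), and Parp9 fell by 0.32 ± 0.07 (adjusted p = 0.00053). Trim21 went from 10.2, 9.34, 10.0 and 8.73 CPM in control to 8.09, 6.71, 5.75 and 6.37 CPM (-0.51 ± 0.11, adjusted p = 0.00071). None of these 4 genes had overlapping libraries. Nmi fell from 9.05, 7.92, 7.98 and 8.13 CPM to 5.07, 5.73, 6.74 and 5.68 CPM (-0.51 ± 0.09, adjusted p = 6.5e-05), and Ifih1 to 15.1, 16.9, 16.1 and 15.4 CPM (-0.45 ± 0.07, adjusted p = 2.3e-05). These, too, were complete separations. Ifi27 fell by 0.30 ± 0.07 (adjusted p = 0.0012).

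Some calls with butyrate alone lay near the threshold, while the direction held in every alternative. Those of Herc6 (-0.35 ± 0.09, adjusted p = 0.0061) and Eif2ak2 (-0.24 ± 0.07, adjusted p = 0.0089) were lost in 10 and 8 of 15 alternatives, and their adjusted p-values were 0.027 and 0.057 without control replicate 1. The log2 fold changes over these alternatives ran from -0.38 to -0.30 for Herc6 and from -0.28 to -0.18 for Eif2ak2. Sp100, a protein of PML nuclear bodies, had 0.14, 0.375, 0.287 and 0.0856 CPM in control and 0.502, 0.622, 0.523 and 0.602 CPM with butyrate (1.32 ± 0.37, adjusted p = 0.0072), on few reads, and 10 of 15 alternatives did not call it (adjusted p = 0.039 without control replicate 4), with log2 fold changes from 1.04 to 1.72. Bst2, Oasl2 and Rtp4, which butyrate lowered in the presence of IL-1β, did not pass the test with butyrate alone. Bst2 then had 2.21, 1.64, 1.72 and 1.63 CPM (-0.51 ± 0.17, adjusted p = 0.028), Oasl2 had 4.52, 4.57, 4.18 and 4.0 CPM (-0.24 ± 0.14, adjusted p = 0.2), and Rtp4 had 1.21, 1.11, 1.62 and 1.25 CPM (-0.22 ± 0.21, adjusted p = 0.49).

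Whether butyrate acted differently with and without IL-1β was tested as the difference of both butyrate effects. None of the 37 genes was called in either direction with edgeR, as against 0.043% of all genes called higher and 0.0538% lower. At an unadjusted p under 0.05 there were 4 of the 37, beside 1362 of all 18587 genes. DESeq2 gave 0 calls and 4 genes at that level, with a smallest adjusted p of 0.6 (Herc6). With edgeR the smallest adjusted p was 0.4 (Herc6, with a difference of -0.36 ± 0.13). For Bst2 the difference was -0.40 ± 0.23, for Oasl2 -0.42 ± 0.18, for Rtp4 -0.45 ± 0.27 and for Irf7 0.13 ± 0.26. With the replicate number as a block in edgeR, 7 of the 37 had an unadjusted p under 0.05, and the smallest adjusted p was 0.14 (Herc6). Without control replicate 1 there were 8, and the smallest adjusted p was 0.24 (Oasl2). Both settings gave 0 calls among the 37, and the share of all genes at that level was not counted for them. For none of the 37 genes was the effect of butyrate shown to differ between islets with and without IL-1β.

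The effects could be compared in libraries that were not shared. IL-1β was compared with control without butyrate and, in the other 8 libraries, IL-1β plus butyrate was compared with butyrate. In the latter, 19 genes were higher and 1 lower (9.92% and 4.86% of all genes), with a median of 0.42 (-0.00937 over all genes). All 19 were among the 22 that rose without butyrate (86.4% of the 22 and 100% of the 19), and the gene that fell was Rsad2 both times (-0.40 ± 0.09 and -0.48 ± 0.09). Over all genes, 71.3% of those higher without butyrate and 80.6% of those higher with butyrate were in common. The other 3 of the 22 did not pass on the background of butyrate, with Ifit1 at 0.34 ± 0.16, Ifit3 at 0.35 ± 0.47 and Ifi35 at 0.27 ± 0.08, and the test of the difference called none of them. Irf1 rose by 0.90 ± 0.05 on the background of butyrate (adjusted p = 1.2e-14), Irf7 by 0.96 ± 0.21 and Parp14 by 1.03 ± 0.08. The effect of butyrate was likewise measured in 2 separate sets of 8 libraries. Of the 11 genes lower with butyrate alone and the 14 lower with butyrate on top of IL-1β, 9 were in common (81.8% and 64.3%), namely Irf7, Nmi, Ifih1, Herc6, Trim21, Parp9, Parp14, Dtx3l and Ifi27, where over all genes the shares were 68.1% and 69.6%.

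**Figure D3:**
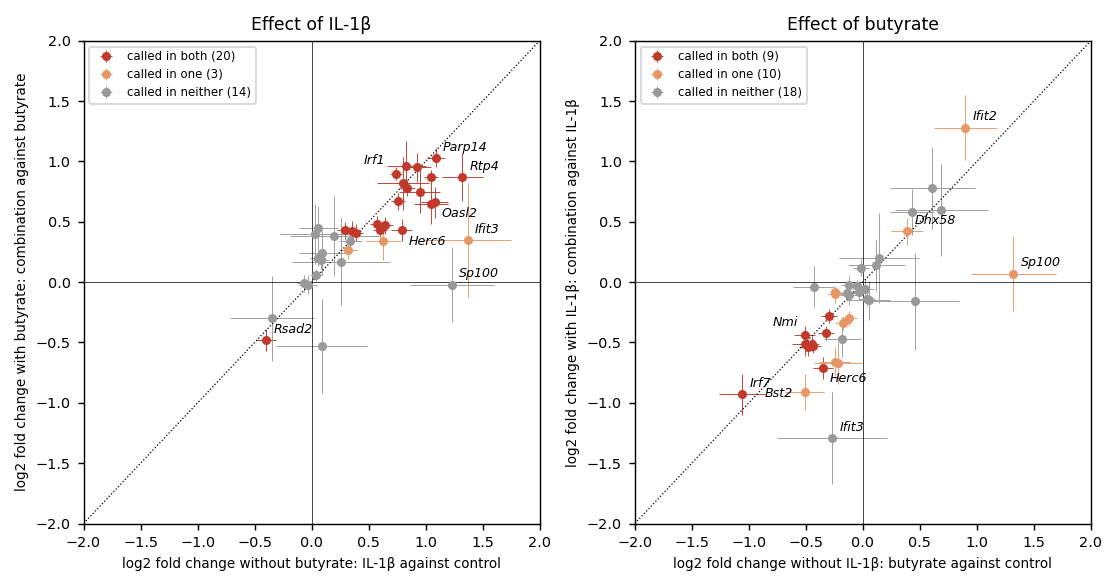
Log2 fold changes of the 37 tested interferon genes with standard errors (bars); left, the IL-1β effect without butyrate (x) and with butyrate (y), and right, the butyrate effect without IL-1β (x) and with IL-1β (y), each axis from 8 libraries not used for the other. The dotted line marks equal effects, red marks genes called on both axes (20 left, 19 of them higher, and 9 right), orange those called on 1 and grey those called on neither.

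Against control, the combination left 15 genes higher and 1 lower, Rsad2 (15.8% and 14.8% of all genes), with a median of 0.19 (-0.00265 over all genes). Without control replicate 2 there were 11 higher. The 15 include genes that butyrate did not lower in the presence of IL-1β, such as Irf1 (0.66 ± 0.05), Irf9 (0.47 ± 0.06), Oas2 (0.80 ± 0.18) and Dhx58 (1.34 ± 0.13), and genes that it lowered in part, such as Samd9l (0.75 ± 0.06) and Parp14 (0.55 ± 0.08). Mx2 and Ifit2 passed the test here as well, Mx2 at 2.83 ± 0.67 CPM (0.67 ± 0.19, adjusted p = 0.0048, lost in 5 of 15 alternatives) and Ifit2 at 1.44 ± 0.073 CPM (1.30 ± 0.27, adjusted p = 0.00028). Irf7 (-0.10 ± 0.18), Bst2 (0.14 ± 0.16), Herc6 (0.08 ± 0.09), Nmi (-0.09 ± 0.08) and Ifi27 (0.10 ± 0.07) had values close to control. Of the 2 genes that could not be tested, Ifitm3, a membrane protein that blocks viral entry, had 0.098 ± 0.079 CPM in control, 0.17 ± 0.11 with IL-1β, 0.369 ± 0.22 with both and 0.0808 ± 0.065 with butyrate. Ifit3b had between 0.225 ± 0.026 CPM (butyrate) and 0.302 ± 0.078 CPM (IL-1β).

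Upstream of these genes stand the ligands, and hardly any transcript of them was seen. Of 20 listed interferon genes, 8, with Ifnb1 among them, had no count in any library, and 19 had at most 3 counts in every library. The exception was Ifng, with 91 counts over all 16 libraries and at most 11 in one. None could be tested. A sample of islets at the end of 10 days does not show what was made earlier.

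The receptors responded to IL-1β. It raised 4 of 6, where 11.2% of all genes tested were called higher. Ifngr2, the signalling chain for interferon gamma, rose from 7.69 ± 0.29 to 21.7 ± 1.9 CPM (1.49 ± 0.07, adjusted p = 7.7e-15), and its partner Ifngr1 from 15.9 ± 0.59 to 25.0 ± 0.84 CPM (0.65 ± 0.07). Ifnar2 rose from 15.1 ± 0.62 to 30.2 ± 4.3 CPM (1.00 ± 0.09, adjusted p = 2.8e-09), while the other chain of the type I receptor, Ifnar1, had 43.7 ± 1.6 and 44.5 ± 2.3 CPM (0.03 ± 0.05, adjusted p = 0.75). Il10rb, which the type III receptor shares with that of IL-10, rose by 0.69 ± 0.08. On top of IL-1β, butyrate lowered Ifnar2 (-0.41 ± 0.08) and Il10rb (-0.32 ± 0.08) among these, and Ifngr1 and Ifngr2 did not pass the test. Ifnlr1, the specific chain of the type III receptor, rose with butyrate alone, from 1.41 ± 0.32 to 2.66 ± 0.3 CPM (0.91 ± 0.20, adjusted p = 0.001).

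The kinases of the receptors, Jak1 (-0.10 ± 0.05), Jak2 (0.16 ± 0.05) and Tyk2 (0.18 ± 0.05), did not pass the test with IL-1β. Butyrate on top of IL-1β lowered Jak2 (-0.25 ± 0.05) and Tyk2 (-0.28 ± 0.05), and butyrate alone lowered Jak2 (-0.37 ± 0.05). Of further IRFs, IL-1β raised Irf5 (2.23 ± 0.29), Irf8 (1.00 ± 0.20) and Irf2 (0.29 ± 0.06), and Irf3, the constitutive sensor-activated factor, did not pass (0.12 ± 0.06). Irf5 and Irf8 are known from myeloid cells, and they had 2.66 ± 0.47 and 4.63 ± 1.2 CPM with IL-1β beside the macrophage markers given above. Butyrate changed none of these 4 in either setting at the threshold used.

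Among 9 negative regulators of the pathway, IL-1β raised 3, Socs3 (1.70 ± 0.08), Ptpn1 (0.59 ± 0.05) and Ptpn11 (0.23 ± 0.05), where 11.2% of all genes were called higher. Butyrate raised 2 of the 9 on top of IL-1β and 4 alone, beside 8.41% and 8.53% of all genes. Butyrate raised Socs3 and Ptpn11 both in the presence of IL-1β (0.36 ± 0.07 and 0.27 ± 0.04) and alone (0.79 ± 0.08 and 0.20 ± 0.05), and alone it also raised Pias1 (0.24 ± 0.05) and Irf2bp2 (0.18 ± 0.05). Socs3, an inhibitor of JAK kinases, had 8.65 ± 0.17 CPM in control, 28 ± 3.2 with IL-1β, 36.2 ± 3.0 with both and 14.9 ± 0.65 with butyrate. Its relative Socs1, the inhibitor of interferon receptors, was sparse, at 0.602 ± 0.092 to 0.822 ± 0.096 CPM, and passed in none of these 3 comparisons.

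**Figure D4:**
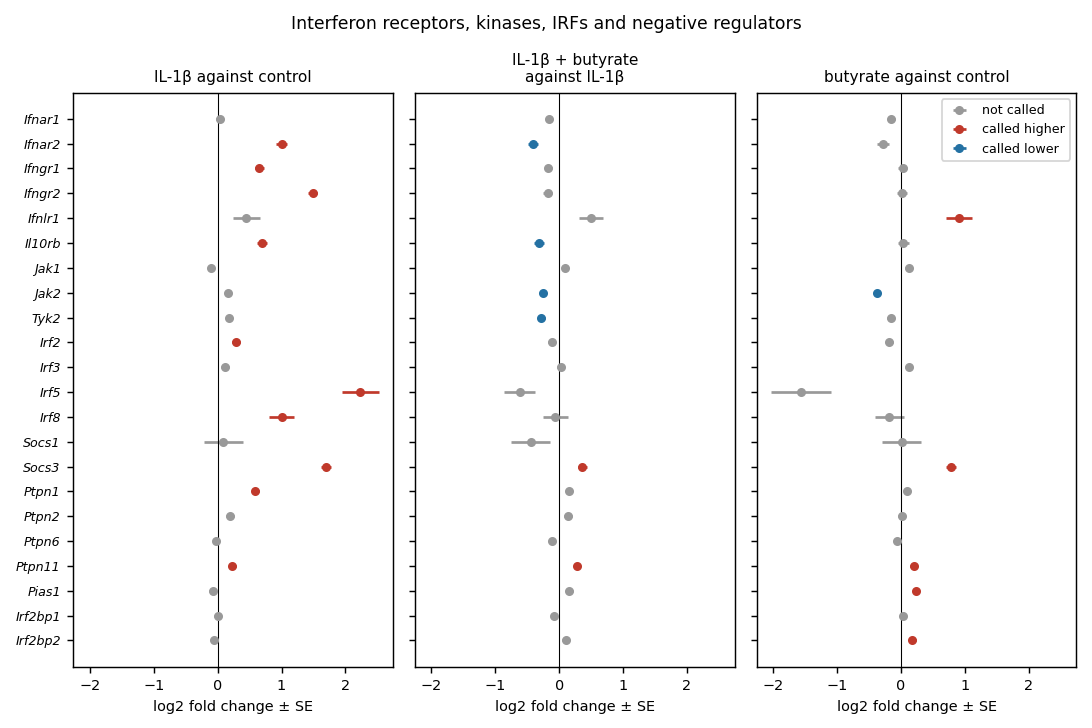
Log2 fold changes with standard errors (x axes, shared scale) of interferon receptors, kinases, IRFs and negative regulators (rows) in 3 comparisons (panels), each from 4 against 4 libraries; red is called higher, blue called lower and grey not called. With IL-1β, Irf5, Socs3 and Ifngr2 lie furthest to the right, whereas Ifnar1 and Jak1 lie near 0; with butyrate alone Ifnlr1 and Socs3 lie to the right.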

How the data were processed

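RNA of mouse islets was sequenced in 16 single-end libraries, 4 for each of 4 conditions. The authors mapped the reads to GRCm38 with STAR 2.5.3a, and the deposited values are read counts per gene, whole numbers without normalization; the annotation release and strand setting are not given in the sources used here. The genes and lists were chosen with earlier results of these data known. In R 4.3.3, edgeR 4.0.16 filtered low counts (filterByExpr, 18587 genes left), scaled by TMM and fitted 1 robust quasi-likelihood model with the 4 conditions; calls needed an adjusted p (Benjamini-Hochberg) under 0.01. Log2 CPM used a prior count of 2. DESeq2 1.42.0, other scalings, filters and thresholds, a replicate block and leaving out libraries were alternatives. Values in every library are given for Stat2, Irf1, Irf7 and Irf9 and for the up to 6 members with the largest called rise and fall in each of the 3 main comparisons (mean log2 CPM of at least 0); other members, Isg15 and Sp100 among them, were added after their values were seen. GENCODE M21, which holds 52489 of the identifiers, gave symbols, positions and lengths, and RefSeq (GRCm38.p6) gave promoters. The pipeline was tested on simulated data.
Libraries with the same number correlated by 0.053 to 0.397 (median 0.118) in their deviations from the condition means, and other pairs by -0.293 to 0.17 (median -0.04). Not every pair of the same number passed the limit of 0.1 (17 of 24 did), so the main fit has no pairs. Yet in 40 of 48 comparisons with the 4 libraries of another condition, a library correlated best with that of its own number. The paper describes 4 independent experiments. Libraries of 1 number may share an experiment, and the main fit does not take this into account. With the number as a block, 2586 of all genes tested were higher and 1951 lower with IL-1β, in place of 2087 and 1224. For the difference of the butyrate effects the block gave 60 higher and 72 lower, in place of 8 and 10. Some genes of the pathway lists are not reported here.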

Additional observations from a re-analysis of the deposited data

Results flagged for a closer look

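Among 148 sets of 4 libraries (37 genes in 4 conditions), 7 held a library far from the other 3, and chance alone flags about 1 in 20 such sets. Of these, 4 were in control replicate 1. There Ifih1 had 24.7 CPM (20.5 to 20.8 in the other controls), Dhx58 had 3.5 CPM (2.44 to 2.57), Parp9 had 16.1 CPM (14.2 to 14.4) and Dtx3l had 20 CPM (17.4 to 17.7). In the same library, 29 of the 37 genes were above the mean of their condition, with a median of 0.12 (log2), where the median over all genes was 0.01. The other sets were those of Rsad2, with 9.1 CPM in replicate 1 of IL-1β plus butyrate (7.47 to 7.58 in the others), Oas1a, with 2.23 CPM in replicate 3 of IL-1β (1.84 to 1.9), and Bst2, with 2.21 CPM in replicate 1 of butyrate (1.63 to 1.72). Without control replicate 1, IL-1β raised 21 genes in place of 22, and butyrate alone lowered 9 in place of 11.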

How the results depend on the processing

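No called change of a member turned its direction in any alternative. With IL-1β against control, leaving out 1 library at a time gave 18 (without control replicate 4) to 21 genes higher and 1 lower. For IL-1β plus butyrate against IL-1β it gave 1 to 2 higher and 13 to 15 lower, for butyrate against control 0 (without control replicate 3) to 1 higher and 9 to 10 lower, for IL-1β plus butyrate against control 11 (without control replicate 2) to 15 higher and 1 lower, and against butyrate 17 to 21 higher and 1 lower. The difference of the butyrate effects gave 0 in each. With DESeq2, 1 gene was higher with butyrate on top of IL-1β, beside 1419 of all genes. The number higher with butyrate alone was 3 at an adjusted p under 0.05, where 2348 of all 18587 genes tested were called higher. It was 0 with no filter on low counts, with DESeq2 and with the libraries of the compared conditions only. Over all genes these settings gave 1501, 1526 and 1770 higher, and the main fit gave 1585. With the replicate number as a block (replicate block), 2 genes were lower with IL-1β plus butyrate than in control. The counts were 23 higher with IL-1β, and 3 higher and 16 lower with butyrate on top of it. The calls over all genes grew as well. They were 3398 in place of 2751 for the first of these counts and 2586 in place of 2087 for the second. With butyrate on top of IL-1β they were 2126 higher and 2857 lower, in place of 1563 and 2066. In 40 of 48 comparisons of a library with the 4 of another condition, it correlated best with the library of its own number. The causes of these shifts were not tested. At 19.2 to 27.7 reads per CPM, depth limits what can be seen of genes such as Isg15 and Ifit3, at a few reads per library.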

Other observations

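Beyond the 39 genes, 50 of 68 further interferon-stimulated genes on a fixed list could be tested. IL-1β raised 24 of them and lowered 0, with a median log2 fold change of 0.35, where 11.2% of all genes were called higher and 6.59% lower. The largest called rises were those of Casp1 (3.26 ± 0.31), which cleaves the IL-1β precursor, Lgals9 (3.08 ± 0.29), a galectin, and Slfn2 (2.85 ± 0.55), which is known from lymphoid and myeloid cells. All 3 were low in control, at 0.292 ± 0.21, 0.387 ± 0.19 and 0.0784 ± 0.073 CPM. On top of IL-1β, butyrate lowered 9 and raised 3 of the 50, beside 11.1% of all genes called lower and 8.41% higher. Casp1 fell by 1.72 ± 0.25, from 2.81 ± 0.18 to 0.849 ± 0.13 CPM, Mov10, an RNA helicase, by 0.87 ± 0.11, and Uba7, the enzyme that activates ISG15, by 0.60 ± 0.11. The genes that rose were Oasl1 (0.76 ± 0.20), Ifitm2 (0.39 ± 0.09) and Tor3a (0.22 ± 0.05).

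Butyrate alone lowered 9 of the 50 and raised 4, beside 11.4% of all genes called lower and 8.53% higher. Slfn9 fell by 2.06 ± 0.30, from 9.2 ± 2.6 to 2.19 ± 0.79 CPM, Mov10 by 0.85 ± 0.12 and Ddx60, an RNA helicase, by 0.79 ± 0.13, whereas Ifitm2 (0.42 ± 0.12), Ifi30 (0.31 ± 0.07) and Cnp (0.27 ± 0.07) rose most. Of 13 tested sensors and adaptors that stand at the start of interferon induction, IL-1β raised 7 and lowered 0. On top of IL-1β, butyrate raised 2 and lowered 2, and alone it raised 1 and lowered 2, counts near the shares over all genes given above. Among them, and chosen after their values were seen, Mb21d1 (cGAS, the DNA sensor) fell with butyrate both with IL-1β (-0.72 ± 0.17) and alone (-0.77 ± 0.17), as did Mavs, the adaptor of the RNA sensors (-0.34 ± 0.07 and -0.36 ± 0.07), while Ticam1, the adaptor of TLR3, rose (0.44 ± 0.06 and 0.61 ± 0.06).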
